A study of Mus musculus with 9 samples.

Results

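The comparison set tumours of the mouse mammary cell line NDL against tumours of the line Met1. Its members were the 3 arrays whose sample titles begin with NDL and the 3 whose titles begin with Met1, which are 6 of the 9 arrays in the series, and it was read over the 19920 genes measured on every array. The remaining 3 arrays, of the line SSM2, entered the estimate of the spread, the choice of feature per gene and the means to which the chromosome values refer, and no test here compares SSM2. All samples came from female FVB/NJ hosts aged 6 to 8 weeks, which received cells of the line in uncleared mammary fat pads of both sides, so the hosts kept their own gland. Tumours were snap-frozen at a width of 5 to 10 mm, and 100 ng of RNA per sample went onto 1 Affymetrix Mouse Gene 1.0 ST array. NDL is known to carry an activated form of the receptor ErbB2, also called neu, as a transgene, and Met1 was established from a tumour driven by the polyoma middle T antigen. Each group is therefore 1 cell line in 1 host strain, and a difference between the lines is not a difference between their oncogenes as such. The labels do not say that the samples of a line came from separate animals or tumours, so p measures only the spread between these samples.

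Mammary epithelium is held together by tight junctions and desmosomes, whose genes are switched on by a set of epithelial transcription factors and switched off by factors of the Zeb and Snail families when cells take on mesenchymal traits. Luminal alveolar cells answer to prolactin through Jak2 and Stat5, which drive milk protein genes. Notch, Wnt, transforming growth factor beta (TGF-beta) and bone morphogenetic protein (BMP) signals pattern the gland, and each acts through secreted or membrane-bound ligands, receptors and a small set of direct target genes.

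Signals are log2 values, so a difference of 1 is a 2-fold change, and every difference is given as NDL minus Met1. With limma, and a call at a Benjamini-Hochberg adjusted p under 0.05 over all genes, 3817 genes (19.2%) were called, 1774 of them higher in NDL (8.91%) and 2043 lower (10.3%). These shares are the background against which the counts of each gene list stand, and the median difference over all genes was 0.06. Of the calls, 46.5% were higher in NDL. The upper quartile of signal was 7.84 and 7.85 in NDL replicates 2 and 1, and from 8.02 to 8.09 in NDL replicate 3 and the Met1 arrays. Across genes, which are not independent replicates, r was 0.987 to 0.995 within Met1. Within NDL it was 0.986 between replicates 1 and 2, and 0.973 and 0.947 for replicate 3 with replicates 1 and 2. Counts that changed by more than 1.5 times without NDL replicates 1 and 2 are also given for that fit. Its lone NDL array, replicate 3, is assumed to vary like the others, although replicates 1 and 2 were closer to each other than to it. Met1 replicate 3 stood apart in epithelial signal: the mean of 6 epithelial markers (Epcam, Krt8, Krt18, Cdh1, Cldn3 and Esrp1) was 8.11, 8.42 and 6.42 in Met1 against 10.88, 10.84 and 10.96 in NDL. The mean of 6 macrophage markers moved the other way, at 8.44, 8.9 and 8.23 in NDL and 10.01, 9.93 and 10.15 in Met1, with 6 of 6 members called lower. None of 6 endothelial or 6 neutrophil markers was called. In bulk tumour RNA, fewer cells of a type and less RNA per cell cannot be told apart.

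**Figure D1:**
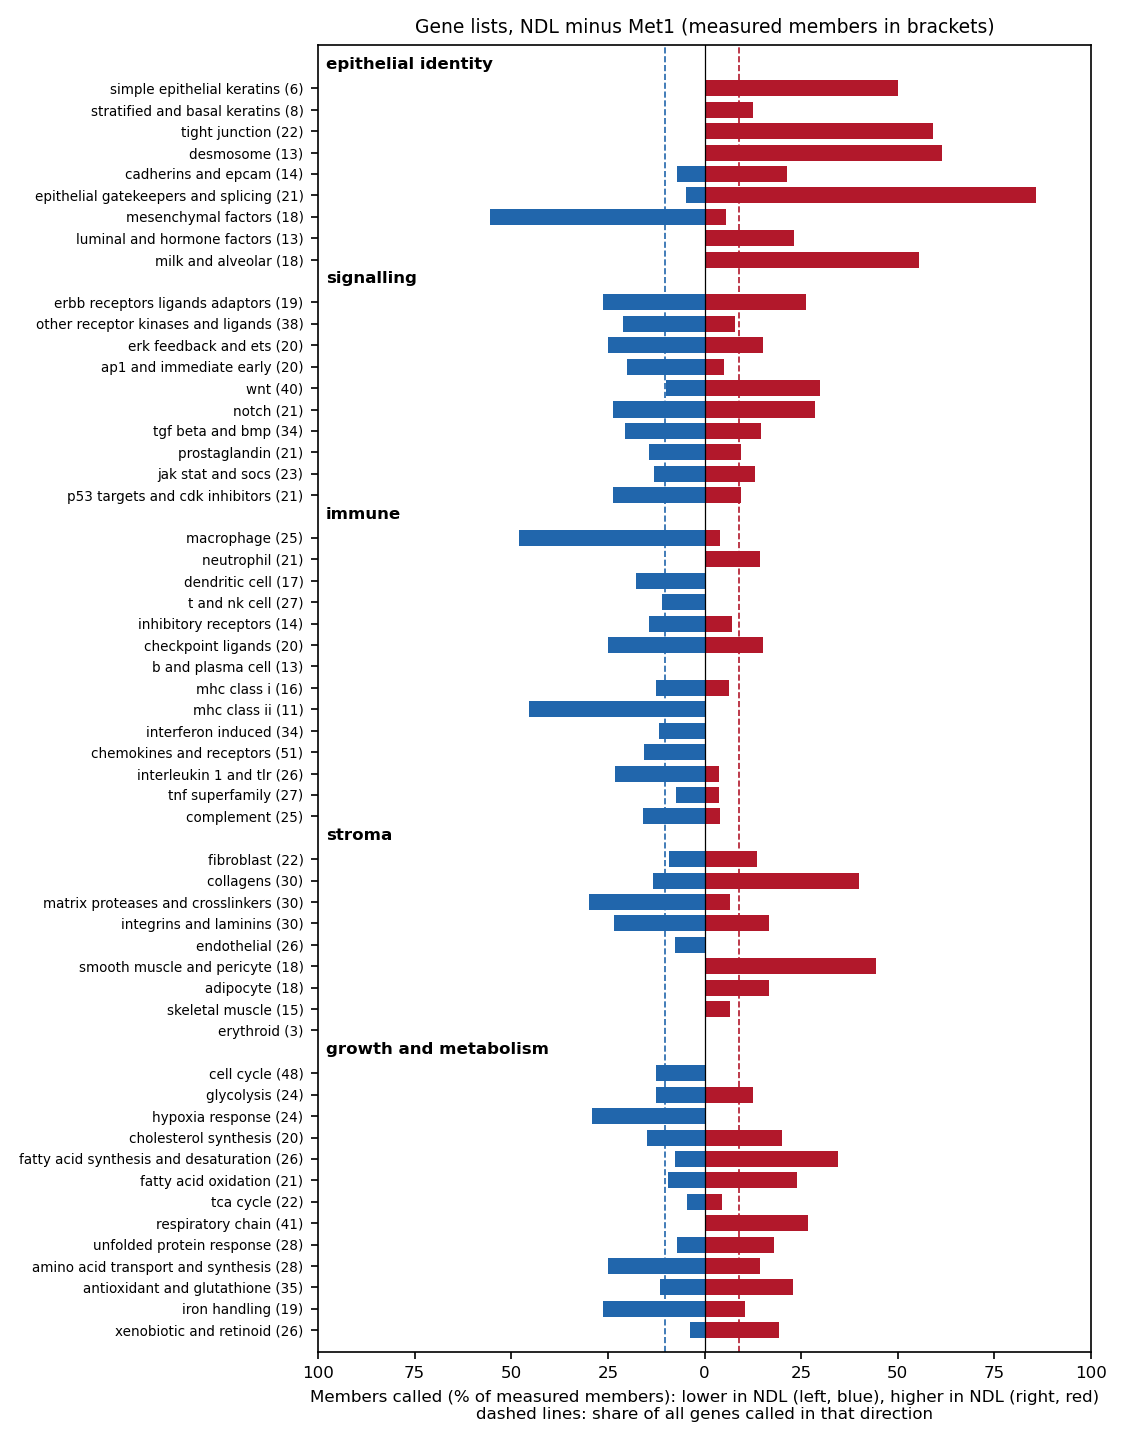
Share of the measured members of each gene list called lower in NDL (blue, left) or higher in NDL (red, right), in percent, with dashed lines at the shares over all genes, 10.3% lower and 8.91% higher. The epithelial guard, desmosome, tight junction and milk lists reach furthest to the right and the mesenchymal, macrophage and MHC class II lists furthest to the left.

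Cell junction genes were higher in NDL. Of 22 measured tight junction genes 13 were higher in NDL and 0 lower (59.1% called, median difference 1.67), and of 13 desmosome genes 8 were higher and 0 lower (61.5%, median 1.18). Leaving out any 1 array left 12 to 14 tight junction and 7 to 10 desmosome genes higher. The sealing claudin Cldn7 stood at 9.84, 10.27 and 9.9 in NDL and 6.15, 6.36 and 5.42 in Met1. The groups did not overlap, and Cldn7 rose 16.3-fold (log2 difference 4.02, SE 0.23, adjusted p = 2.73e-05). Ildr1 and Lsr, angulins that recruit tricellulin to the corners where cells meet, rose by 3.1 and 2.61, Cldn3 by 2.9, and the tetraspan junction protein Marveld3 by 2.82. Among desmosome genes, the desmosomal cadherin Dsc2 measured 8.43, 7.62 and 9.25 in NDL and 5.16, 5.34 and 4.72 in Met1. NDL replicate 2 was the lowest NDL array for Dsc2 and still lay above every Met1 array (log2 difference 3.36, SE 0.46, adjusted p = 0.00151). Its partner cadherin Dsg2 rose by 3.02, and the plaque proteins Jup, Dsp and Pkp1 by 2.4, 2.34 and 2.24.

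Genes that set or guard epithelial identity were also higher in NDL. In a list of 21 epithelial transcription factors, splicing factors, membrane proteases and trafficking genes, 18 were higher in NDL and 1 lower (90.5% called, median 2.97), with 13 higher without NDL replicates 1 and 2. The list shares Cldn7 with the tight junction list and Elf5 with the milk list. Spint1, the inhibitor of the membrane protease matriptase, stood at 10.47, 10.55 and 10.8 in NDL and 6.74, 6.99 and 6.33 in Met1, with no overlap (log2 difference 3.92, SE 0.19, adjusted p = 1.24e-05). Prss8, the protease prostasin of the same cascade, rose by 3.41, and Rab25, a GTPase of apical recycling, by 3.58. The alveolar transcription factor Elf5 measured 9.98, 10.15 and 10.5 in NDL and 6.48, 6.74 and 5.26 in Met1. Its lowest NDL array was more than 3 log2 units above its highest Met1 array (log2 difference 4.05, SE 0.36, adjusted p = 0.0002). The single member that fell was the transcription factor Klf4 (-1.07, adjusted p = 0.00267). Among 13 luminal and hormone factors 3 were higher and 0 lower (23.1% called, near the 19.2% over all genes, median 0.375). The 3 were the AP-2 gamma gene Tfap2c (4.01), the luminal progenitor receptor Kit (3.03) and Xbp1 (1.46), a factor of secretory cells. The hormone receptors Esr1 and Pgr did not pass (0.6 and 0.375, adjusted p = 0.0678 and 0.522). Without SSM2 replicate 1, 5 of the 13 factors were higher. The epithelial markers given above moved with all of these lists, and their part in them was not tested. This was partly fixed in advance, because Cldn3 is also in the tight junction list and Esrp1 in the guard list. Cdh1 and Epcam are likewise in the cadherin list that follows.

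In the list of cadherins and Epcam 3 of 14 genes were higher and 1 lower, with a median of 0.22. The list mean was 7.65, 7.59 and 7.64 in NDL and 7.23, 7.48 and 6.92 in Met1, without overlap. Cdh1, the epithelial cadherin, rose by 2.71, and Cdh2, the neural cadherin, fell by 3.14. Cdh2 read 5.46, 5.56 and 5.73 in NDL and 8.65, 8.96 and 8.56 in Met1, which put every NDL array below every Met1 array (log2 difference -3.14, SE 0.13, adjusted p = 7.52e-06). Among 18 mesenchymal factors 10 were lower and 1 higher (61.1% called, median -1.71), and the lower count was 10 or 11 with any 1 array left out and 8 without NDL replicates 1 and 2. Zeb1, a repressor of epithelial genes, stood at 6.02, 5.89 and 6.09 in NDL and 8.27, 8.64 and 8.31 in Met1. The arrays of Zeb1 lay close together in each line and the groups did not overlap (log2 difference -2.4, SE 0.2, adjusted p = 0.000159). Twist1 fell by 1.98 and the receptor kinase Axl by 2.5. Snai2, a Snail family repressor, overlapped between the lines (-0.09, adjusted p = 0.854), and its sign changed with the arrays used. Snai3 was the member called higher (0.58), and it lost the call without NDL replicate 1 or 2 or any 1 of the Met1 arrays (adjusted p up to 0.119). The higher count was 4 without NDL replicate 3 and 0 with NDL replicates 1 and 2 both dropped.

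Zeb and Snail factors bind the E-box CAGGTG, so RefSeq promoters (from 250 before to 50 after a start, GRCm38.p6) were searched for it on both strands, where the other strand reads CACCTG. Of 56 genes measured in the tight junction, cadherin and epithelial guard lists, 33 had a promoter entry and 17 of these held the motif (51.5%), against 22.2% of 15614 measured genes with an entry and 20.2% of 32851 promoters. Of the 24 that were higher in NDL 14 held it, and of the other 9 it was found in 3. A match is a string of letters and shows no binding. The 3 members with the largest rise that held it are shown as the 170 bases before the start, with the motif in capitals: Elf5 at chr2:103411928-103412097 on the plus strand, Cldn7 at chr11:69965251-69965420 on the plus strand, and Rab25 at chr3:88548280-88548449 on the minus strand. Elf5 and Cldn7 each have 2 starts in the table, of which 1 is shown.
Elf5: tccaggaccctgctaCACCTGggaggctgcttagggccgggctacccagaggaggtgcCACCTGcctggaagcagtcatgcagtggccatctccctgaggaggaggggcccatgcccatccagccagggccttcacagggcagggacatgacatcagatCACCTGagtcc
Cldn7: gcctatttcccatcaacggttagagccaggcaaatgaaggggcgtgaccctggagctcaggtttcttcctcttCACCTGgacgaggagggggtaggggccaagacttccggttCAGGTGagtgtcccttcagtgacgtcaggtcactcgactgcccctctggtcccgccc
Rab25: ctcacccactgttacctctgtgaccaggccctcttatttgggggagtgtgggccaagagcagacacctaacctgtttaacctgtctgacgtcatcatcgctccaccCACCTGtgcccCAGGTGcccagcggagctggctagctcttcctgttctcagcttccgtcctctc
In these stretches Elf5 held 3 matches, of which the nearest began 11 bases before the start, while Cldn7 held 2, at 97 and 57 bases, and Rab25 held 2, at 64 and 53 bases.

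Milk genes were higher in NDL. Of 18 milk and alveolar genes 10 were higher and 0 lower (55.6% called), or 5 higher without NDL replicates 1 and 2. Csn2, beta-casein, stood at 7.51, 8.85 and 9.26 in NDL and 4.37, 4.6 and 4.37 in Met1, and it rose 17.1-fold from a Met1 mean under the 25th percentile of signal (4.91), so the size is uncertain (log2 difference 4.09, SE 0.38, adjusted p = 0.00025). Ltf, lactoferrin, rose by 3.07. In the Jak-Stat and Socs list 3 of 23 genes were higher and 3 lower (26.1% called). Socs2, a feedback inhibitor induced by Stat5, stood at 10.42, 9.92 and 11.32 in NDL and 6.23, 6.83 and 6.63 in Met1. The groups of Socs2 did not overlap, although NDL replicate 3 was more than 1 unit above NDL replicate 2 (log2 difference 3.99, SE 0.34, adjusted p = 0.000165). Stat5b rose by 0.57 (adjusted p = 0.0102), while Stat5a, its counterpart, was 0.81 higher with an adjusted p = 0.125. Cish, another Stat5-induced inhibitor, rose by 0.76, a call lost without NDL replicate 2, Met1 replicate 1 or Met1 replicate 3 (adjusted p up to 0.0728). Other members fell: Il6st, the shared chain of the interleukin 6 family receptors, by 1.34 and the suppressor Socs5 by 1.17. Socs3, a feedback inhibitor of interleukin 6 signals, fell by 1.08, a call lost without NDL replicate 1, Met1 replicate 1 or Met1 replicate 3 (adjusted p up to 0.0751). The lower count of the Jak-Stat list was 5 without NDL replicate 3, and its higher count was 1 with NDL replicates 1 and 2 both dropped.

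The Stat5-type motif TTCNNNGAA, which reads the same on both strands, was searched separately from CAGGTG and was found in 4 of 14 milk genes with a promoter entry (28.6%), against 8.99% of measured genes and 8.3% of promoters. It is shown for Csn1s2a, a casein gene that rose by 4.89, as 29 bases just after the start at chr5:87774460-87774488 on the plus strand of GRCm38.p6, with the motif in capitals.
Csn1s2a: ttatagtgctTTCTTAGAAttacaatgac
The motif in Csn1s2a began 21 bases into the transcript, and Csn1s2a had a Met1 mean of 3.34, under the 25th percentile of signal.

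**Figure D2:**
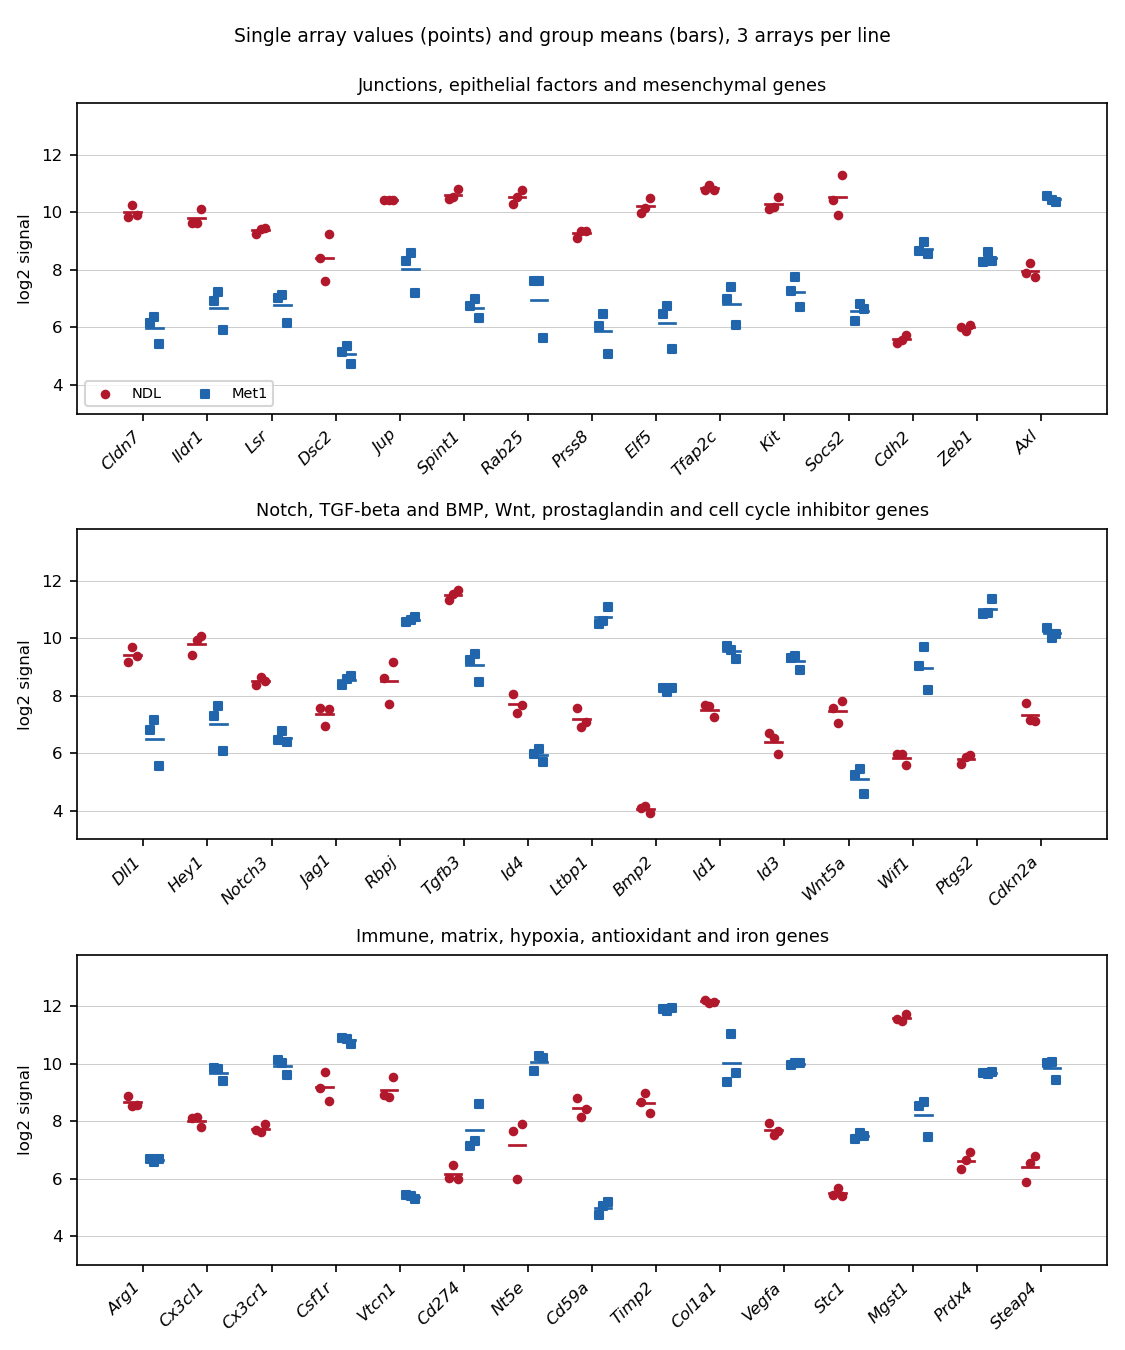
Log2 signal of 45 genes in each of 3 NDL arrays (red circles) and 3 Met1 arrays (blue squares), with short bars at the group means. In every gene drawn the NDL and Met1 arrays lie apart, with NDL above for the junction genes such as Cldn7 and below for genes such as Bmp2, Ptgs2 and Timp2.

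Notch genes were called in both directions. Of 21 measured, 6 were higher and 5 lower (52.4% called, median 0.03), or 3 in each direction when NDL replicates 1 and 2 were dropped, and the lower count was 3 without NDL replicate 1 or Met1 replicate 1. The ligand Dll1 stood at 9.16, 9.68 and 9.39 in NDL and 6.79, 7.14 and 5.54 in Met1, and the groups did not overlap (log2 difference 2.92, SE 0.37, adjusted p = 0.00112). The other called ligand, Jag1, was the reverse, at 7.58, 6.96 and 7.53 in NDL and 8.37, 8.59 and 8.69 in Met1 (log2 difference -1.19, SE 0.17, adjusted p = 0.00212). Of the receptors, Notch3 rose by 1.97 (adjusted p = 8.75e-05), and Notch1 differed by -0.38 (adjusted p = 0.315), with overlapping arrays. The target gene Hey1 measured 9.43, 9.93 and 10.07 in NDL and 7.3, 7.65 and 6.07 in Met1, without overlap (log2 difference 2.8, SE 0.37, adjusted p = 0.0013). Nrarp, a target that feeds back on the pathway, rose by 1.1. Rbpj, the DNA-binding partner of all Notch receptors, fell: it stood at 8.6, 7.71 and 9.17 in NDL and 10.56, 10.62 and 10.75 in Met1 (log2 difference -2.15, SE 0.35, adjusted p = 0.00386). NDL replicate 2 was the lowest array for Rbpj, and all NDL arrays lay below Met1. Rfng, a fringe enzyme that modifies Notch receptors, fell by 0.88.

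TGF-beta and BMP genes were also called in both directions. Of 34 measured, 5 were higher and 7 lower (35.3% called, median -0.14), and the higher count was 3 without NDL replicate 1 or Met1 replicate 2 and 2 with NDL replicates 1 and 2 both dropped. Among the ligands, Tgfb3 rose by 2.45 and Tgfb2 by 1.69, whereas Tgfb1 overlapped (-0.06, adjusted p = 0.876) and changed sign under cyclic loess. Tgfb3 read 11.32, 11.54 and 11.67 in NDL and 9.23, 9.45 and 8.48 in Met1, without overlap. Bmp2 stood at 4.1, 4.15 and 3.92 in NDL and 8.26, 8.14 and 8.27 in Met1, with the NDL arrays under the 25th percentile of signal, which leaves the size uncertain (log2 difference -4.17, SE 0.17, adjusted p = 7.52e-06). Ltbp1, which stores latent TGF-beta in the matrix, stood at 7.58, 6.9 and 7.08 in NDL and 10.48, 10.6 and 11.08 in Met1 (log2 difference -3.54, SE 0.35, adjusted p = 0.000338). The BMP target genes Id1 and Id3 fell with Bmp2. Id3 measured 6.7, 6.53 and 5.97 in NDL and 9.31, 9.38 and 8.89 in Met1, without overlap (log2 difference -2.79, SE 0.2, adjusted p = 8.26e-05), and Id1 fell by 2.02. Id4, of the same family, rose by 1.76. The ligand Bmp7 also went the other way from Bmp2, with a rise of 0.97, and Bambi rose by 1.17. The call of Bmp7 was lost without NDL replicate 1 or Met1 replicate 2 or 3 (adjusted p up to 0.069). That of Bambi was lost without NDL replicate 1 or 2 or Met1 replicate 1 or 2 (adjusted p up to 0.0686). The call of the receptor Tgfbr1 (-1.44) was lost without NDL replicate 1 or 2 or any Met1 array (adjusted p up to 0.124).

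Wnt genes were called mostly in the higher direction. Of 40 measured, 12 were higher and 4 lower (40% called, median 0.4). The higher count was 6 without NDL replicate 1, NDL replicate 2 or Met1 replicate 1, 7 without Met1 replicate 3, and 4 without NDL replicates 1 and 2, when 1 was lower. The ligand Wnt5a stood at 7.58, 7.05 and 7.8 in NDL and 5.23, 5.46 and 4.57 in Met1 (log2 difference 2.39, SE 0.36, adjusted p = 0.00254). Its groups did not overlap, and Met1 replicate 3 was the lowest array. The membrane ligase Rnf43, which removes Wnt receptors and is itself a Wnt target, rose by 1.64 (adjusted p = 8.18e-05). Axin2, a widely used Wnt target, fell by 0.54, a call lost without Met1 replicate 1 or 2 (adjusted p up to 0.0673). Secreted inhibitors differed among themselves. Wif1, which binds Wnt proteins, stood at 5.97, 5.97 and 5.58 in NDL and 9.02, 9.68 and 8.19 in Met1 (log2 difference -3.13, SE 0.33, adjusted p = 0.00042). Notum, an enzyme that strips lipid from Wnt proteins, fell by 1.28, and Sfrp1 rose by 2.46, a call lost without NDL replicate 1 (adjusted p = 0.0615). The receptor Fzd4 fell by 1.66.

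In the prostaglandin list of 21 genes, 2 were higher and 3 lower (23.8% called), near the background, and the lower count ranged from 1 to 5 with 1 array left out, being 1 without NDL replicate 1, Met1 replicate 1 or Met1 replicate 3, 5 without NDL replicate 3 or SSM2 replicate 3, and 0 with NDL replicates 1 and 2 both dropped. Ptgs2, the inducible cyclooxygenase, stood at 5.63, 5.88 and 5.93 in NDL and 10.83, 10.87 and 11.35 in Met1 (log2 difference -5.2, SE 0.7, adjusted p = 0.00149). The inducible synthase downstream of it, Ptges, overlapped between the lines (-0.2, adjusted p = 0.775), as a counterpart named although it did not pass. The prostaglandin E2 receptors Ptger2 and Ptger4 differed by -0.4 and -0.53 without passing (adjusted p = 0.145 and 0.098). Ptges2, a constitutive synthase, rose by 0.95. In the fit that dropped NDL replicates 1 and 2, 1 prostaglandin gene was higher.

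Inhibitors of the cell cycle were lower in NDL where they were called. Of 21 p53 targets and cyclin-dependent kinase inhibitors 2 were higher and 5 lower, and the lower count was 2 without NDL replicate 1 or Met1 replicate 1, 3 without Met1 replicate 2 or 3, and 0 without NDL replicates 1 and 2. The higher count was 0 without NDL replicate 1, NDL replicate 2 or both, or without Met1 replicate 1 or 2, and 1 without Met1 replicate 3 or SSM2 replicate 1. Cdkn2a, which encodes p16 and p19Arf, read 7.75, 7.17 and 7.11 in NDL and 10.35, 9.99 and 10.15 in Met1. The groups lay more than 2 units apart (log2 difference -2.82, SE 0.6, adjusted p = 0.0124). Its neighbour Cdkn2b fell by 1.19 and Cdkn2c by 1.45, and the 3 genes lie on chromosome 4, whose genes are described further on. The call of Cdkn2b was lost without NDL replicate 1 or any Met1 array, and that of Cdkn2c without NDL replicate 1 or Met1 replicate 1 or 3 (adjusted p up to 0.0867 and 0.0738). Cell cycle genes themselves gave 0 higher and 6 lower calls of 48 (12.5%), with 2 without NDL replicate 1, 3 without Met1 replicate 3, 13 without NDL replicate 3 and 0 with NDL replicates 1 and 2 both dropped. Ccna2, cyclin A2, fell by 1.31 (adjusted p = 0.00897), and Mki67 overlapped between lines (0.05, adjusted p = 0.917). Called lower like the inhibitors were the kinase Cdk6 (-1.82) and the D-type cyclins Ccnd2 (-1.68) and Ccnd1 (-0.47). The calls of Cdk6 and Ccnd1 were lost without NDL replicate 1 or any Met1 array (adjusted p up to 0.0934 and 0.0803). That of Ccnd2 was lost without NDL replicate 1 (adjusted p = 0.056).

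Genes of the ErbB and ERK pathways were called in both directions. Of 19 ErbB receptors, ligands and adaptors 5 were higher and 5 lower, and the lower count was 2 without NDL replicate 1, NDL replicate 2, Met1 replicate 1, Met1 replicate 2 or NDL replicates 1 and 2 together, and 3 without Met1 replicate 3 or SSM2 replicate 2. Erbb2, the receptor whose activated form NDL carries, stood at 11.27, 11.25 and 11.39 in NDL and 7.63, 7.64 and 7.15 in Met1, as a check of the labels. Erbb3, of the same family, read 10.2, 10.03 and 10.54 in NDL and 6.08, 6.47 and 4.86 in Met1 (log2 difference 4.45, SE 0.39, adjusted p = 0.000178). Grb7 rose by 2.53, Nrg2 by 0.87 and Egfr by 1.02. The call of Egfr was lost without any 1 NDL array, Met1 replicate 1 or 3 or SSM2 replicate 2 (adjusted p up to 0.149). Lrig1, a negative regulator of ErbB receptors, fell by 1.01 and the ligand Hbegf by 1.55. Among 20 ERK feedback genes 3 were higher and 5 lower, with 6 higher without SSM2 replicate 3 and 3 lower without NDL replicate 1 or Met1 replicate 1 or 2. With NDL replicates 1 and 2 both dropped, 2 ERK feedback genes were lower. The phosphatase Dusp4 rose by 2.23 and the inhibitor Spry4 by 1.12, whereas Spry2 fell by 1.42. The AP-1 factor Fosl1 read 5.86, 5.69 and 5.39 in NDL and 8.13, 7.5 and 8.77 in Met1 (log2 difference -2.49, SE 0.3, adjusted p = 0.00083), and Jun fell by 1.28. Outside the ErbB family, the collagen receptors Ddr1 and Ddr2 moved oppositely, by 1.46 and -1.87.

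Macrophage genes were lower in NDL. Of 25 measured 12 were lower and 1 higher (52.0% called, median -1.18), a count that depended on single arrays: 4 were lower without NDL replicate 1, 5 without Met1 replicate 1 or 3, 6 without Met1 replicate 2, and 2 without NDL replicates 1 and 2. Itgam, the CD11b integrin chain of myeloid cells, stood at 7.66, 7.87 and 7.3 in NDL and 9.68, 9.62 and 10.01 in Met1 (log2 difference -2.16, SE 0.37, adjusted p = 0.00471). The fractalkine pair moved together: the ligand Cx3cl1, of the chemokine list, measured 8.11, 8.15 and 7.81 in NDL and 9.85, 9.81 and 9.42 in Met1 (log2 difference -1.67, SE 0.22, adjusted p = 0.00131), and its receptor Cx3cr1, found on macrophages, measured 7.7, 7.63 and 7.92 in NDL and 10.14, 10.04 and 9.62 in Met1 (log2 difference -2.18, SE 0.3, adjusted p = 0.00161). In neither gene did the lines overlap. The second ligand and receptor pair was Csf1, the macrophage growth factor, at 7.79, 8.14 and 7.74 in NDL and 9.23, 9.21 and 9.35 in Met1, and Csf1r at 9.16, 9.72 and 8.69 in NDL and 10.9, 10.88 and 10.7 in Met1. Both were lower in NDL without overlap (differences of -1.37 and -1.64), but the call of Csf1 was lost without NDL replicate 1 (adjusted p = 0.0513), and that of Csf1r without NDL replicate 1 or any Met1 array (adjusted p up to 0.0819). Mrc1 and Msr1, scavenger receptors, fell by 2.02 and 2.11. Adgre1, the F4/80 antigen, fell by 1.34, a call lost without NDL replicate 1 or any Met1 array (adjusted p up to 0.0903). The single member higher in NDL (2 without NDL replicate 3 or SSM2 replicate 3) was Arg1, arginase, at 8.88, 8.53 and 8.58 in NDL and 6.69, 6.57 and 6.7 in Met1, which rose 4.03-fold (log2 difference 2.01, SE 0.14, adjusted p = 6.38e-05). The mean of the 6 macrophage markers given at the start moved with these genes, and their part in each single gene was not tested. Csf1r, Adgre1 and Mrc1 are themselves among those markers, so this was partly fixed in advance.

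MHC class II genes were lower where called. Of 11 MHC class II genes 5 were lower and 0 higher (45.5% called), or 3 lower without NDL replicate 1, any Met1 array or SSM2 replicate 2. H2-Ea, a class II alpha chain gene, stood at 5.66, 5.75 and 5.66 in NDL and 7.03, 7.19 and 7.36 in Met1 (log2 difference -1.5, SE 0.11, adjusted p = 7.55e-05), without overlap. The alpha chain gene H2-Aa and the class II regulator Ciita were not called (differences of -0.85 and -0.91). Rfx5, a factor that binds class II promoters, fell by 0.75, and H2-Ab1 fell by 1.11, a call lost without NDL replicate 1 or 3, any Met1 array or SSM2 replicate 2 (adjusted p up to 0.168). Some class II genes have close paralogues, between which probes can cross. In the interleukin 1 and Toll-like receptor list 1 of 26 was higher and 6 lower, or 2 lower without NDL replicate 1 and 3 without NDL replicate 2 or Met1 replicate 3, and 2 higher without NDL replicate 3 or SSM2 replicate 3. In the fit that dropped NDL replicates 1 and 2, 2 were higher and 1 lower. Il18 stood at 4.2, 4.34 and 4.04 in NDL and 6.03, 5.94 and 6.81 in Met1 and its receptor chain Il18r1 at 5.99, 5.56 and 7.24 in NDL and 3.73, 4.2 and 4.66 in Met1, so that the cytokine was lower and the receptor higher in NDL (-2.07 and 2.07, adjusted p = 0.00191 and 0.0106). The lower group of each gene lay under the 25th percentile of signal, which leaves the size uncertain. Tlr2, a receptor for bacterial lipoproteins, fell by 1.68.

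Few lymphocyte genes were called. Of 27 T and NK cell genes 3 were lower and 0 higher (11.1%, against 10.3% lower over all genes), and the lower count was 0 without Met1 replicate 2 or 3 and 1 without NDL replicate 1, alone or with NDL replicate 2. None of 13 B and plasma cell genes was called. Cd3e overlapped between the lines (-0.05, adjusted p = 0.894) and changed sign with the arrays used. Cd8a stood at 6.31, 6.31 and 5.75 in NDL and 6.77, 7.02 and 7.38 in Met1, lower without overlap (log2 difference -0.93, SE 0.22, adjusted p = 0.018), a call lost without Met1 replicate 2 or 3 (adjusted p up to 0.0664). Among 20 ligands of T cell checkpoints 3 were higher and 5 lower (40% called). Vtcn1, the inhibitory ligand B7-H4, stood at 8.91, 8.84 and 9.53 in NDL and 5.44, 5.4 and 5.3 in Met1 (log2 difference 3.71, SE 0.73, adjusted p = 0.00894). Ceacam1, an adhesion molecule with an inhibitory tail, stood at 9.67, 8.73 and 11.08 in NDL and 5.4, 5.91 and 4.89 in Met1 (log2 difference 4.43, SE 0.55, adjusted p = 0.00103). NDL replicate 2 was the lowest NDL array for Ceacam1 and lay above all Met1 arrays. The reverse was found for Cd274, the ligand PD-L1, at 6.03, 6.47 and 6.0 in NDL and 7.14, 7.32 and 8.59 in Met1, which fell by 1.52, a call lost without NDL replicate 1 (adjusted p = 0.0908). Its receptor Pdcd1 was lower by a difference of -0.56 that did not pass (adjusted p = 0.0652). Nt5e, the ectoenzyme CD73 that makes adenosine, stood at 7.65, 6.01 and 7.92 in NDL and 9.75, 10.27 and 10.2 in Met1 (log2 difference -2.88, SE 0.51, adjusted p = 0.0053). The lower count of the checkpoint ligands was 3 without NDL replicate 1, any Met1 array or SSM2 replicate 2, and without NDL replicates 1 and 2 there were 1 higher and 2 lower.

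Interferon-induced genes gave 0 higher and 4 lower calls of 34 (11.8%), close to the background, and 1 lower without NDL replicate 1 or Met1 replicate 3 and 2 without Met1 replicate 2. With NDL replicates 1 and 2 both dropped, 1 was lower. The chemokine Cxcl9 was graded within Met1, at 6.07, 7.05 and 6.23 in NDL and 7.88, 8.86 and 10.26 in Met1, and its call (-2.55) was lost without NDL replicate 1 or Met1 replicate 2 or 3 (adjusted p up to 0.0973). Isg20, an interferon-induced nuclease, fell by 1.16 (adjusted p = 0.0016) and kept the call with each array left out. Irf7, the master factor of the type I response, differed the other way without passing (1.5, adjusted p = 0.0888). Of 51 chemokines and receptors 0 were higher and 8 lower (15.7%), or 3 lower without NDL replicate 1 or Met1 replicate 3, 5 without Met1 replicate 2, and 2 with NDL replicates 1 and 2 both dropped. Among complement genes, Cd59a, which blocks the membrane attack complex, rose: it stood at 8.81, 8.16 and 8.42 in NDL and 4.75, 5.05 and 5.2 in Met1 (log2 difference 3.46, SE 0.26, adjusted p = 8.75e-05). Its list gave 1 higher and 4 lower calls of 25 (20.0%), close to the 19.2% over all genes. The lower count went from 0, without NDL replicate 1 or Met1 replicate 3, to 9, without SSM2 replicate 3. It was 1 without Met1 replicate 1 and 7 without SSM2 replicate 1. The higher count was 2 without NDL replicate 3 or SSM2 replicate 1 and 5 without SSM2 replicate 3. In the fit that dropped NDL replicates 1 and 2, 0 complement genes were lower. In the neutrophil list 3 of 21 were higher, and Cd177, a neutrophil surface glycoprotein, read 11.39, 11.41 and 11.49 in NDL and 6.31, 5.88 and 5.96 in Met1 although none of the 6 neutrophil markers was called and their mean was at most 5.41 in these arrays.

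**Figure D3:**
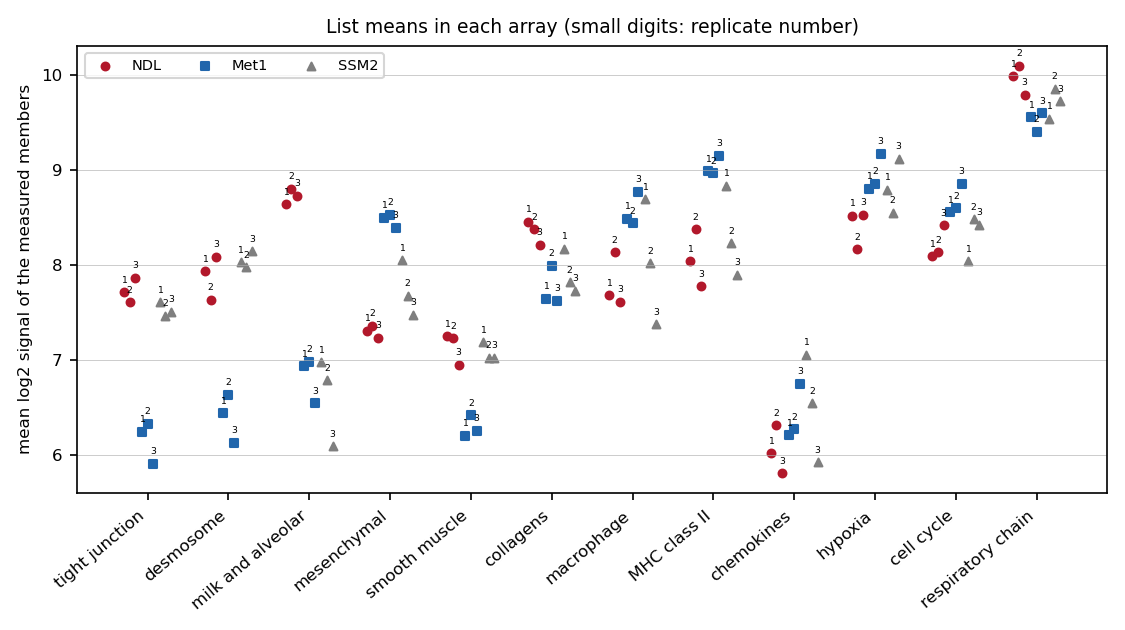
Mean log2 signal over the measured members of 12 gene lists in each array, with NDL in red circles, Met1 in blue squares and SSM2 in grey triangles, and the replicate number beside each point. NDL and Met1 arrays lie apart in 11 of the 12 lists and overlap for chemokines, and Met1 replicate 3 is the lowest array for the tight junction and desmosome lists.

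Matrix genes split by type. Of 30 collagens 12 were higher in NDL and 4 lower (53.3% called, median 0.34), or 7 higher without NDL replicate 1 and 4 higher and 2 lower with both NDL replicates 1 and 2 dropped. The fibrillar chains Col1a1 and Col1a2 rose by 2.14 and 2.08 (adjusted p = 0.00846 and 0.00783). Col1a1 read 12.23, 12.13 and 12.16 in NDL and 9.38, 11.05 and 9.69 in Met1, with a wide spread in Met1 and no overlap, and both calls were lost with array weights (adjusted p = 0.0753 and 0.0645). Col9a1, a chain of cartilage-type collagen IX, rose by 2.5 (adjusted p = 9.73e-05). The beaded-filament chains Col6a1 and Col6a2 fell by 1.83 and 1.08. Of 18 smooth muscle and pericyte genes, 8 were higher (44.4%) and 0 lower, or 5 higher without any 1 of the NDL replicates 1 and 2 or the Met1 arrays. With NDL replicates 1 and 2 both dropped, 4 were higher. Oxtr, the oxytocin receptor of contractile cells, rose by 1.01 (adjusted p = 0.000383). In the fibroblast list 3 of 22 were higher and 2 lower (22.7%), with 1 higher without NDL replicate 1 or Met1 replicate 1 or 2, and Mfap5, a microfibril protein, rose by 1.89 while Dpt, dermatopontin, fell by 3.02. In the fit that dropped NDL replicates 1 and 2, 1 fibroblast gene was higher and 1 lower.

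Enzymes and inhibitors that shape matrix were mostly lower where called: of 30, 2 were higher and 9 lower (36.7% called), and 8 to 10 were lower with any 1 array left out, while 1 was higher without NDL replicate 1 or Met1 replicate 1 and 0 with NDL replicates 1 and 2 both dropped. Timp2, an inhibitor of metalloproteinases, stood at 8.66, 9.0 and 8.28 in NDL and 11.92, 11.83 and 11.93 in Met1. The Met1 arrays of Timp2 lay close together and far above NDL (log2 difference -3.25, SE 0.37, adjusted p = 0.000633). Timp3 fell by 2.46. Pcolce and Pcolce2, enhancers of procollagen cleavage, fell by 2.67 and 4.27. Pcolce read 8.49, 8.71 and 8.66 in NDL and 11.26, 11.27 and 11.34 in Met1 (log2 difference -2.67, SE 0.19, adjusted p = 7.25e-05). The protease Adamts1 fell by 2.42. Among 30 integrins and laminins 5 were higher and 7 lower (40% called). The fibronectin receptor chains Itga5 and Itgav fell by 1.59 and 1.17 and the laminin chain Lamb1 by 1.74, while Lamb2 rose by 1.25. The higher count was 1 without NDL replicate 2, Met1 replicate 1 or Met1 replicate 3, 3 without Met1 replicate 2 and 2 without NDL replicate 1. With NDL replicates 1 and 2 both dropped, 2 integrin and laminin genes were higher and 3 lower.

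Genes of the hypoxia response were lower where called, 7 of 24 with 0 higher (29.2%), and 5 to 8 were lower with any 1 array left out and 2 without NDL replicates 1 and 2. Without SSM2 replicate 2, 1 was higher. Vegfa, the endothelial growth factor, stood at 7.95, 7.54 and 7.65 in NDL and 9.96, 10.02 and 10.02 in Met1 (log2 difference -2.29, SE 0.48, adjusted p = 0.0121). Stc1, stanniocalcin, stood at 5.42, 5.67 and 5.4 in NDL and 7.4, 7.6 and 7.5 in Met1 (log2 difference -2.0, SE 0.12, adjusted p = 3.41e-05). Both genes separated the lines completely. The prolyl hydroxylases of collagen P4ha1 and P4ha2 fell by 1.84 and 2.09, and the carbonic anhydrase Car9 by 1.75. Hif1a, the factor of the response, overlapped between lines at the transcript level (-1.38, adjusted p = 0.127). Of the Vegfa receptors, Flt1 fell by 1.9 (adjusted p = 0.000301) and Kdr differed by -0.25 without passing (adjusted p = 0.552).

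Of 24 glycolysis genes 3 were higher and 3 lower (25%), or 5 lower without SSM2 replicate 3. In the fit that dropped NDL replicates 1 and 2, 1 was higher and 1 lower. Aldoc, an aldolase isoenzyme, stood at 12.91, 12.93 and 12.85 in NDL and 9.96, 10.03 and 9.58 in Met1 (log2 difference 3.04, SE 0.3, adjusted p = 0.000333). Ldhb, the lactate dehydrogenase chain of oxidative tissue, rose by 1.4, while the lactate transporter Slc16a1 fell by 1.85. Of 26 fatty acid synthesis genes, 9 were higher and 2 lower (42.3% called, median 0.52), or 5 higher and 1 lower without NDL replicates 1 and 2. Srebf1, the lipogenic transcription factor, rose by 1.51, the desaturase Scd2 by 1.39 and malic enzyme Me1 by 1.59, whereas Fasn, fatty acid synthase, fell by 0.91 and the desaturase Fads1 by 1.22. Fasn read 10.08, 10.54 and 10.12 in NDL and 11.24, 11.29 and 10.95 in Met1 (log2 difference -0.91, SE 0.16, adjusted p = 0.00542), without overlap. Of 41 respiratory chain genes, 11 were higher and 0 lower (26.8%), but the count rested on the arrays used: 1 without NDL replicate 1 or Met1 replicate 2, 2 without NDL replicate 2, 4 without Met1 replicate 1, 7 without Met1 replicate 3, 17 without NDL replicate 3 and 0 with NDL replicates 1 and 2 both dropped. In fatty acid oxidation 5 of 21 were higher and 2 lower, with 2 higher without NDL replicate 1 or 2 or Met1 replicate 2 or 3 and 3 without Met1 replicate 1, and 1 lower without NDL replicate 1, any Met1 array or any SSM2 array. With NDL replicates 1 and 2 both dropped, 2 oxidation genes were higher and 0 lower. Ppargc1a, a coactivator of mitochondrial genes, rose by 2.32 from a Met1 mean under the 25th percentile, and Decr1, of unsaturated fatty acid oxidation, fell by 1.95.

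Of 35 antioxidant genes 8 were higher and 4 lower (34.3% called), or 3 higher without NDL replicates 1 and 2. The microsomal glutathione transferase Mgst1 stood at 11.55, 11.49 and 11.73 in NDL and 8.52, 8.68 and 7.47 in Met1 (log2 difference 3.37, SE 0.29, adjusted p = 0.000177). The cytosolic transferases Gsta3 and Gstt1 rose by 2.85 and 2.41. Probes of glutathione transferases can cross between near-identical copies. Prdx4, the peroxiredoxin of the endoplasmic reticulum, fell: it stood at 6.33, 6.64 and 6.94 in NDL and 9.69, 9.66 and 9.73 in Met1 (log2 difference -3.06, SE 0.15, adjusted p = 1.24e-05). Gpx8, also of the endoplasmic reticulum, fell by 1.68, and thioredoxin, Txn1, by 0.7. Of 19 iron genes 2 were higher and 5 lower (36.8%), or 2 lower without NDL replicates 1 and 2, and the higher count was 0 without any 1 of the Met1 arrays, 1 without NDL replicate 1 and 4 without SSM2 replicate 3. The metalloreductases Steap1, Steap2 and Steap4 fell by 1.39, 2.9 and 3.44, and Steap2 read 5.04, 4.91 and 5.32 in NDL and 7.98, 8.11 and 7.85 in Met1 (log2 difference -2.9, SE 0.13, adjusted p = 1.04e-05). The NDL mean of Steap1 lay under the 25th percentile of signal, so its size is uncertain. In the fit that dropped NDL replicates 1 and 2, 1 iron gene was higher. Slc40a1, the iron exporter ferroportin, rose by 1.95, a call lost without NDL replicate 1 or any Met1 array (adjusted p up to 0.0679). Of 28 amino acid genes 4 were higher and 7 lower (39.3%), and the higher count was 2 without NDL replicate 1, any Met1 array or SSM2 replicate 2. With NDL replicates 1 and 2 both dropped, the lower count of amino acid genes was 1. Phgdh, the first enzyme of serine synthesis, stood at 7.45, 7.35 and 7.17 in NDL and 9.44, 9.28 and 9.63 in Met1 (log2 difference -2.13, SE 0.44, adjusted p = 0.0112). The one-carbon enzyme Mthfd2, the neutral amino acid carrier Slc1a4 and the arginine carrier Slc7a2 fell (differences of -1.91, -2.22 and -2.24), whereas the glutamate carrier Slc1a1 rose by 2.91 and the leucine carrier Slc7a5 by 1.0.

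Among the 30 largest differences in each direction, many genes belonged to none of these pathways. The genes described here were picked for their size and form no tested group. The forkhead factor Foxi1, which specifies acid-secreting epithelial cells, stood at 9.55, 10.0 and 8.95 in NDL and 5.01, 5.42 and 5.66 in Met1 (log2 difference 4.14, SE 0.26, adjusted p = 4.39e-05). The proton pump subunit Atp6v1b1, a known Foxi1 target in such cells, stood at 10.18, 10.72 and 10.66 in NDL and 5.81, 5.71 and 5.58 in Met1 (log2 difference 4.82, SE 0.21, adjusted p = 9.91e-06). The subunit Atp6v1c2 rose by 4.53, carbonic anhydrase Car2 by 4.6, the water channel Aqp5 by 4.55, the chloride channel family member Clic6 by 4.79 and the GABA receptor subunit Gabrp by 4.31. For Foxi1, Atp6v1b1 and Atp6v1c2 the lines did not overlap. Of 24 measured proton pump genes, a family chosen after these values were seen, 3 were higher and 1 lower, with a median difference of 0.13. The tetraspanins Tspan1 and Tspan8 rose by 5.0 and 4.29, the secretory pathway pseudokinase Fam20a by 4.71, the peptidoglycan-binding protein Pglyrp1 by 4.63 and the sialyltransferase St8sia6 by 4.19. The lower group mean of Clic6, St8sia6 and Ndp lay under the 25th percentile of signal, so the size of these differences is uncertain. Igfbp5, an insulin-like growth factor binding protein, rose by 4.16, with Met1 replicate 3 far below the others at 5.99, and lost the call without NDL replicate 1 or 2 (adjusted p up to 0.0679). Lower in NDL were Abcb1b, a drug efflux pump (-3.16), the protocadherin Fat4 (-3.12), norrin, Ndp (-3.1), the neuronal pentraxin Nptx1 (-3.07), the elongase Elovl4 (-2.98) and Gfra1, a receptor of the GDNF family (-2.9).

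The calls were spread unevenly over the chromosomes. With genes placed by RefSeq (GRCm38.p6, 19909 genes), 23.4% of chromosome 14 genes were lower in NDL and 3.56% higher, against 10.3% and 8.91% over all genes. Chromosomes 4, 3 and 13 had 21.5%, 21.2% and 18.2% lower with 5.51%, 5.29% and 2.31% higher. Chromosomes 19 and 7 were the reverse, with 16.1% and 14% higher and 3.98% and 3.51% lower. Over the 9958 of these genes above the median signal, each array was also described by the chromosome median of its values relative to each gene's mean over the 9 arrays. For chromosome 14 this was -0.27, -0.3 and -0.16 in NDL and 0.24, 0.28 and 0.32 in Met1. For chromosome 13 it was -0.37, -0.51 and -0.19 in NDL and 0.13, 0.14 and 0.07 in Met1. For chromosome 3 the values were -0.2, -0.33 and -0.002 in NDL and 0.25, 0.29 and 0.26 in Met1. For chromosome 19 they were 0.06, 0.09 and 0.04 in NDL and -0.21, -0.24 and -0.32 in Met1. All NDL arrays lay above all Met1 arrays on 7 chromosomes and below on 6, and the lines overlapped on 7. The SSM2 means were near 0 for chromosome 14 (0.02) and above 0 for chromosome 13 (0.25). The shares moved with the arrays used, and without 1 of the 6 arrays the lower share of chromosome 14 was 12.4% to 29.2%, its higher share 2.42% to 12.4%, and without NDL replicates 1 and 2 they were 7.26% and 2.42%.

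Neighbouring genes moved together in places. Among 9478 windows of 25 genes above the median signal, consecutive by their RefSeq positions, with a median of -0.1, the lowest ran from Eif2a to Nmd3 on chromosome 3, where 15 genes were lower and 0 higher (median -1.36). Windows from Lcp1 to Bora on chromosome 14 and from Virma to Map3k7 on chromosome 4 followed, with 17 and 13 genes lower and 1 higher in each (medians -1.22 and -1.2). The highest window ran from Fuom to Taldo1 on chromosome 7, with 15 genes higher and 0 lower (median 0.81), ahead of Atp5o to C2cd2 on chromosome 16 (0.78) and Zfyve27 to Poll on chromosome 19 (0.78). Windows were ranked after their values were seen, and neither they nor the chromosome shares were tested.

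**Figure D4:**
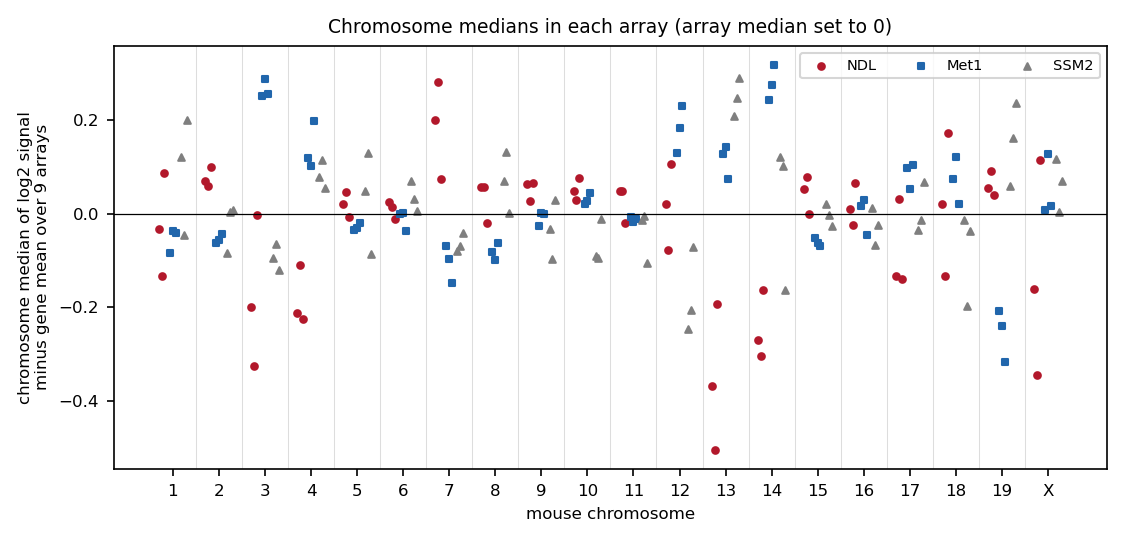
Chromosome median, in each array, of the log2 signal relative to each gene's mean over 9 arrays, for genes above the median signal, with array medians set to 0. NDL (red circles) lies below Met1 (blue squares) on chromosomes 3, 4, 12, 13, 14 and 17 and above it on chromosomes 2, 5, 7, 8, 9, 15 and 19, and SSM2 is shown as grey triangles.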

How the data were processed

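Mouse tumour RNA was measured on 9 one-colour arrays, of which the 3 NDL and 3 Met1 arrays were compared and the 3 SSM2 arrays entered the same fit. Each deposited table holds log2 signals, summarised by the authors through RMA with oligo 1.40.2 per the submitters' processing notes, and no further normalization was applied. No scanner files or batch dates were used here.

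Of 35556 features, 21789 carried 1 gene symbol in the platform annotation, 1621 several and 12146 none. The symbols gave 19920 genes, and for the 1015 with more than 1 feature the one with the highest mean over the 9 arrays was kept. The number of arrays limits the precision. Differences were tested with limma 3.58.1 (lmFit and eBayes; residual df 6, prior df 2.416) in R 4.3.3 with the package data.table (version 1.17.8), with Benjamini-Hochberg adjustment over all genes. Counts and plots used Python 3.11.15, pandas 2.3.3 and matplotlib 3.10.9. Only the limma step was tested on simulated data. Promoter sequences came from RefSeq (GRCm38.p6). Genes were named when they were among the 30 largest differences in each direction without overlap, among the up to 5 largest called members of a list in each direction, or on a short reference list. Counterparts that did not pass were added. Csf1 lay outside the rule, and it and the counterparts were chosen after their values were seen. The members and gene lists were chosen with earlier results of these data known. Array weights, other normalizations, filters on low signal, a minimum fold of 1.5, a replicate block and leaving out arrays were tried as alternatives.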

Additional observations from a re-analysis of the deposited data

How the results depend on the processing

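Up to 21 alternatives were tried for the 326 called genes named by the rule or added to it. Genes that a filter on low signal removed had fewer. None of the 326 changed direction, but this was partly fixed in advance. Leaving out SSM2 arrays, the minimum fold and the replicate block cannot alter a difference. Genes whose lines do not overlap keep their sign when 1 array is dropped. Of the 326, 214 kept the call with each single array left out. Leaving out 1 array gave 2372 to 6629 called genes in all, 1168 to 3369 higher and 1151 to 3260 lower, with the most calls without NDL replicate 3. A minimum fold of 1.5 left 871 called genes, 484 higher and 387 lower, and leaving out NDL replicates 1 and 2 left 1702, 973 higher and 729 lower, of which 1451 were among the 3817. Cyclic loess moved the higher share of calls from 46.5% to 49.7%, and the minimum fold and the lone NDL array moved it to 55.6% and 57.2%. The cause of these shifts was not tested, beyond the fewer arrays or stricter threshold of the fits themselves.

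With the replicate number as a block (replicate block), 3343 genes were called, 1504 higher and 1839 lower, and 293 of the 326 kept the call. Deviations of same-numbered NDL and Met1 arrays correlated at 0.13, -0.35 and -0.11. Differently numbered arrays were not set beside them, so these values cannot decide whether the numbers pair the samples.

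Some genes that did not pass changed sign. With 1 array left out, the difference ran from -0.13 to 0.046 for Cd3e, -0.049 to 0.23 for Cdh5, -0.76 to 0.043 for Il33, -0.54 to 0.65 for Krt14, -0.24 to 0.24 for Mki67, -0.32 to 0.050 for Snai2 and -0.24 to 0.11 for Tgfb1. Without NDL replicates 1 and 2 it was -0.25 for Cdh5, 0.10 for Il33, 0.080 for Ptges and 0.29 for Snai2. With array weights it was 0.014 for Cd3e and -0.23 for Krt14, and for Tgfb1 it was 0.051 with cyclic loess and 0.026 with quantile normalization.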

Other observations

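Schwann cell markers, 3 of which were measured, were all called higher in NDL, with a mean of 7.72, 7.58 and 7.45 in NDL against 5.77, 5.83 and 5.75 in Met1 and no overlap. Of 5 pericyte markers 2 were higher. Y-linked markers, read as background in female hosts, had a mean of 3.09 to 3.29 in the NDL and Met1 arrays.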
